A study of Capra hircus with 3 samples.

Results

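Mast cells and basophils are granulocytes of the IgE-driven branch of immunity, and in these goat livers they were sought among single-cell barcodes by 5 genes. A barcode was chosen by its unique molecular identifiers (UMIs, 1 for each captured RNA molecule): at least 3 over KIT, CPA3, MS4A2, HDC and GATA2 with at least 2 of the 5 genes detected, none of THEMIS, STAB2, TIMD4 or PAX5, and fewer than 4 UMIs of CPS1 and ABCB11 together. The rule found 52 members among 25591 barcodes, or 0.203%. There were 14 in the Con library, 24 in the NASH library and 14 in the NASH-T library. Con was the healthy group fed the LRDS diet, NASH was the non-alcoholic steatohepatitis group fed the HRDS diet, and NASH-T was the steatohepatitis tolerance group, also fed the HRDS diet. All goats (Capra hircus) were females aged 3 to 4 years. The livers of 5 goats were pooled into 1 library per group, so individual animals cannot be told apart, and cells were freed with trypsin at 37 °C and sequenced by a 3′-end droplet method. With 1 library per group there is no replicate and no test between groups: every interval is a 95% interval for counting error only.

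Mast cells are long-lived tissue cells that need the receptor tyrosine kinase KIT and its ligand, stem cell factor (KITLG). They store proteases such as carboxypeptidase A3 (CPA3) and histamine, made by histidine decarboxylase (HDC), in granules, and release them when IgE on the high-affinity receptor, of which MS4A2 is the beta chain, is cross-linked. GATA2 is a transcription factor of both lineages, basophils circulate in blood and usually carry little KIT, and in liver mast cells are known mainly from portal tracts and fibrous tissue.

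KIT was detected in all 52 members, with 104 UMIs in Con, 187 in NASH and 111 in NASH-T. A single member held 1 to 19 of them in Con (median 6), 2 to 17 in NASH (7.5) and 2 to 27 in NASH-T (4.5), so the libraries overlap widely cell by cell. CPA3 was detected in 11 of 14 members of Con, 19 of 24 of NASH and 10 of 14 of NASH-T. HDC was detected in 4, 7 and 4 members and GATA2 in 4, 8 and 7 members of Con, NASH and NASH-T. MS4A2 gave 2 UMIs in Con, 2 in NASH and 0 in NASH-T. The commonest combination was KIT with CPA3 and no other rule gene, in 22 members. In 50 members at least 1 of CPA3, MS4A2 and HDC was present, and 2 members passed on KIT and GATA2 alone. These 5 genes chose the members, so their levels describe the choice.

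The sum of 3 was seldom the deciding step, but the condition of 2 genes was more often so. Of the 52 members, 1 had a sum of 3, 3 had a sum of 4 and 48 had more. No barcode with 2 of the genes stopped at a sum of 2. Another 21 barcodes had 3 or more UMIs of a single rule gene, which was KIT in 19 of them. They met the other conditions and lay 9 in Con, 6 in NASH and 6 in NASH-T. Of 3 genes described below, MCTP1 was detected in 14 of the 21, PDE1C in 9 and GPM6A in 8. How many of the 21 are mast-like was not tested. IL1RL1, the receptor for interleukin 33 and no part of the rule, was detected in 8 of those 21 barcodes and in 46 of the 52 members. The conditions on other lineages and hepatocytes removed 26 barcodes that met the 5-gene condition: 5 in Con, 18 in NASH and 3 in NASH-T. Of these 26, 15 carried THEMIS, 10 TIMD4, 5 STAB2, 2 PAX5 and 10 had 4 or more hepatocyte UMIs, while 24 had CPA3, MS4A2 or HDC and 19 had IL1RL1.

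**Figure D1:**
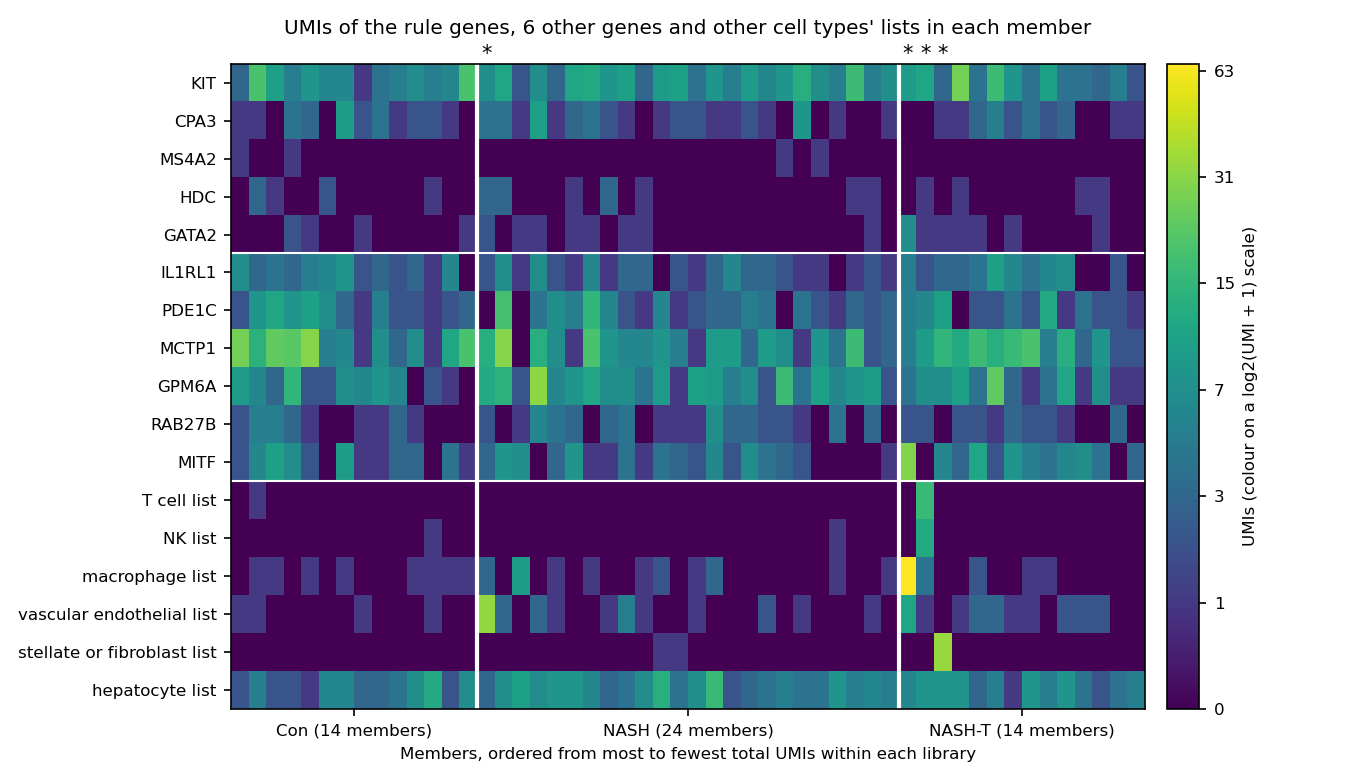
UMIs in each of the 52 members (columns, ordered by total UMIs within Con, NASH and NASH-T) of the 5 rule genes, of 6 genes outside the rule and of 6 marker lists of other cell types (rows), with colour on a log2(UMI + 1) scale and an asterisk over each mixed member. KIT is present in every column, the T cell, NK, macrophage, vascular endothelial and stellate lists are at or near 0 in most, and the 4 marked columns are bright in at least 1 of those lists.

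Markers outside the rule were read for both names, more of them for mast cells than for basophils. Of 18 further mast cell markers, 12 were rows of the matrix and 10 were measured. Among these 10, 7 were at least 2-fold above all other barcodes with an interval above 1 (MITF, HPGDS, LTC4S, IL1RL1, SLC18A2, RGS13 and HPGD). Over all genes measured in the 3 libraries together, 6.07% met that call. Within single libraries 6 of 8 measured markers were called in Con, 5 of 8 in NASH and 6 of 8 in NASH-T, against 3.72%, 5.76% and 4.73% of all genes. The further basophil markers summed to 0 UMIs in Con, 4 in NASH and 1 in NASH-T, and 3 of these 5 were CSF2RB. Only 4 of those 10 basophil markers were rows of the matrix and 2 were measured, of which CSF2RB was 12.9-fold higher (2.64 to 38.0). Eosinophil markers gave 1 UMI in all, and the neutrophil, dendritic cell and dividing cell lists were at 0 in every member. The tryptase, chymase and cathepsin G symbols (TPSAB1, TPSB2, CMA1, CTSG) were not rows of the matrix under those names and were not used here. The members are called mast-like below, from the markers outside the rule. How many of them are basophils cannot be read from so few basophil markers.

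Other identities were measured in the same members, with MYB, RORA and IL7R picked from their lists after the values were seen. By the same call, 2 of 5 measured progenitor genes were higher (MYB and MECOM) and 1 was lower. Of 9 measured innate lymphoid genes 1 was higher (IL2RA) and 2 were lower. Of 11 measured vascular endothelial genes 3 were higher (PECAM1, TEK and ERG) and 0 lower. Over all genes 6.07% were higher and 5.2% lower. MYB, a transcription factor of haematopoietic progenitors, had 28 UMIs in 20 members and stood at 449 CPM against 1.98 in the other barcodes. CPM is a gene's UMIs scaled to the UMI total of the same barcodes. RORA, a nuclear receptor of innate lymphoid and T cells, had 57 UMIs, but at 914 CPM it was close to the 839 CPM of the other barcodes. IL7R, a receptor of lymphoid cells, had 3 UMIs in 2 members. The hepatocyte list was present in all 52 members, with a median of 5 UMIs, at 5350 CPM in Con, 5888 in NASH and 2942 in NASH-T. In T cell-marked barcodes, which should lack it, that list stood at 3600, 4017 and 4378 CPM in Con, NASH and NASH-T, and it was found in almost every barcode of every population. The members of Con and NASH lay above that level and those of NASH-T below it. The NASH-T value was lowered by 3 members with many UMIs of another cell type, called mixed below. They held 51.9% of the UMIs of the NASH-T members but only 6, 8 and 8 UMIs of the hepatocyte list. The low NASH-T value therefore does not describe its other members. The part of free hepatocyte RNA in any difference within the members was not tested.

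Mixed members, 4 of the 52, held 10 or more UMIs of another cell type's marker list, a limit set after seeing the data. The hepatocyte list did not count, nor did the basophil, eosinophil, innate lymphoid, progenitor, erythroid and dividing cell lists, and a further 4 members held 10 to 16 hepatocyte UMIs. One lay in NASH, with 33 vascular endothelial UMIs among 3885. The others lay in NASH-T: the first had 66 macrophage UMIs among 6660 and passed on KIT and GATA2 alone, the second had 16 T cell and 12 NK UMIs among 4042, and the third had 34 stellate or fibroblast UMIs among 2539. They were the deepest members of their libraries. In NASH-T they held 51.9% of all UMIs of the members and in NASH 15.4%, so ratios between libraries are given with and without them. Among the other 48 members the T cell list had UMIs in 1, the NK and stellate lists in 2 each and the sinusoidal endothelial list in 3, with at most 2 UMIs in any of them. The macrophage list had UMIs in 20 of those 48 (8, 20 and 4 UMIs in Con, NASH and NASH-T) with 9 of the NASH UMIs in 1 member that had 0 UMIs of MCTP1 and PDE1C, and the vascular endothelial list in 22 (4, 19 and 15 UMIs), and their part in the results was not tested. The doublet caller marked 1 of the 52 members, in NASH-T, and no cell barcode shared between libraries was a member.

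Members were shallow. Their median was 772 UMIs in Con (503 to 1193), 761 in NASH (536 to 3885) and 1218.5 in NASH-T (525 to 6660), against 2461, 2555 and 2201 over all barcodes. Summed, they gave 11588, 25308 and 25490 UMIs. The lowest barcode in the files had 500 UMIs, and 7 members had fewer than 600, so mast-like cells under that limit were not counted. Without the mixed members the NASH-T median was 1106 UMIs, still above the 754 of NASH.

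Mast-like barcodes made up 0.187% of barcodes in Con (exact binomial interval 0.102 to 0.314), 0.275% in NASH (0.176 to 0.409) and 0.149% in NASH-T (0.0817 to 0.250). NASH was the highest and NASH-T the lowest, and the 3 intervals overlap. The share in NASH was 1.47 times that in Con (0.730 to 3.07), and the share in NASH-T was 0.798 times that in Con (0.353 to 1.81) and 0.543 times that in NASH (0.260 to 1.09). None of these ratios is distinguishable from 1 at this number of cells. Since hepatocytes are part of the denominator, the shares were also taken over barcodes with fewer than 4 hepatocyte UMIs: 0.305% in Con, 0.539% in NASH and 0.224% in NASH-T. On that base NASH-T over NASH was 0.417 (0.199 to 0.839) and NASH over Con was 1.76 (0.876 to 3.69).

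The order of the libraries was not the same under all alternatives. NASH had the highest share under 16 of 18 alternatives, and the NASH-T over NASH interval lay below 1 in 5 of them. These alternatives share most of their barcodes and are not separate checks. None of them admitted barcodes with a single rule gene. A sum of at least 2 returned the same 14, 24 and 14 members as the rule. Thinning to 1000 UMIs kept the same 5, 8 and 10 members as a minimum of 1000 UMIs. Under the 5-gene condition alone, with 19, 42 and 17 barcodes in Con, NASH and NASH-T, NASH over Con was 1.90 (1.08 to 3.45) and NASH-T over NASH was 0.377 (0.201 to 0.677). Among barcodes of at least 1000 UMIs only 5, 8 and 10 members remained in Con, NASH and NASH-T, NASH-T over NASH was 1.17 (0.415 to 3.40) and NASH-T over Con was 1.63 (0.506 to 6.06). Most members of Con (9 of 14) and NASH (16 of 24) and fewer of NASH-T (4 of 14) lay under 1000 UMIs. With every barcode thinned to 500 UMIs the counts were 12, 23 and 11, or 0.160%, 0.263% and 0.117%, and the order was kept. Without the mixed members they were 14, 23 and 11.

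**Figure D2:**
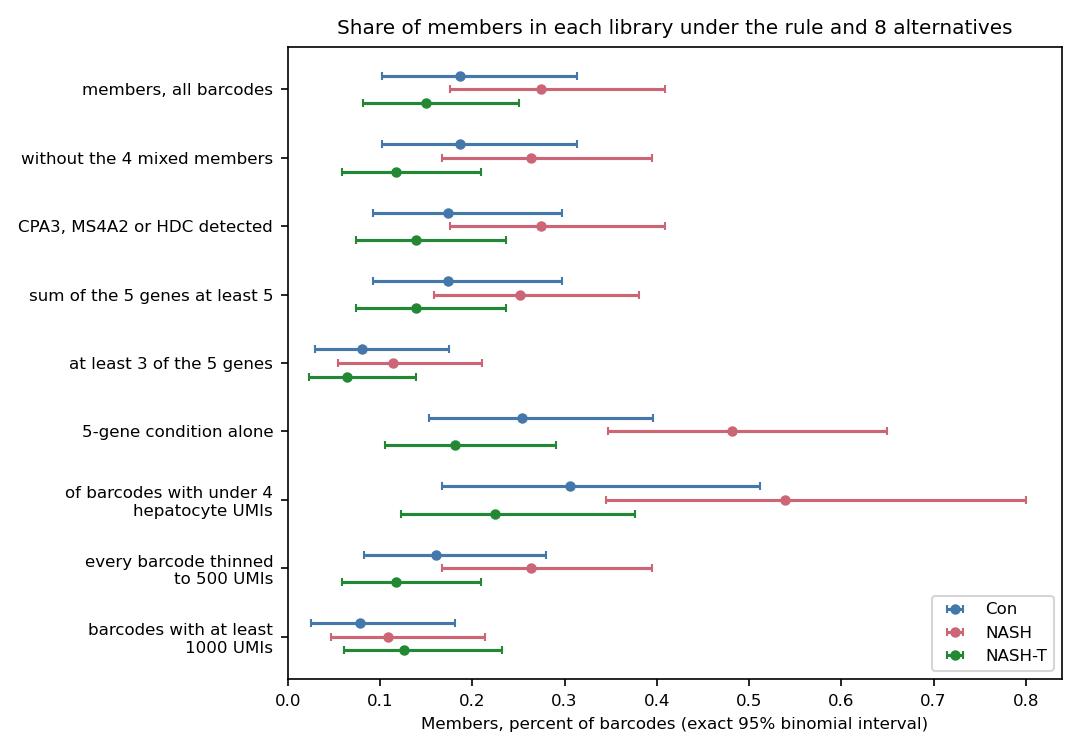
Members as a percent of barcodes (x axis, with exact 95% binomial intervals) in Con, NASH and NASH-T under the rule and 8 alternatives (y axis). NASH lies to the right in every row except the lowest, barcodes with at least 1000 UMIs, where NASH-T is highest, and most intervals overlap.

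A set of genes outside the rule marked nearly every member. MCTP1, a membrane protein with calcium-binding C2 domains, was detected in 51 of 52 members, GPM6A, a membrane glycoprotein best known from neurons, in 50, PDE1C, a calcium- and calmodulin-dependent cyclic nucleotide phosphodiesterase, in 48, and IL1RL1 in 46. All 52 members had at least 2 of these 4 genes and 50 had at least 3, although the 4 were singled out after their values were seen. By the ratio of CPM in members to all other barcodes of the 3 libraries, the leading gene was CACNA1D, the pore subunit of an L-type voltage-gated calcium channel, at 541-fold (410 to 709) with 76 UMIs in 34 members. PDE1C followed at 424-fold (362 to 495), IL1RL1 at 241-fold (203 to 285), GPM6A at 222-fold (198 to 248) and MCTP1 at 120.1-fold (109 to 131). These folds describe a chosen population, and the same 4 mixed members lowered them: without those members CACNA1D was 628-fold and MCTP1 152-fold.

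The next leading genes had other roles. SLC45A3, a membrane transporter of the solute carrier family, was 71.2-fold higher with UMIs in 35 members, and DOCK5, an activator of the GTPase Rac, was 70.8-fold higher with UMIs in 43. BNC2, a zinc finger protein, was 70.4-fold higher. EXTL3, a glycosyltransferase of heparan sulphate synthesis, was 41.4-fold higher with UMIs in 43 members, and GNPTAB, which tags lysosomal enzymes with mannose 6-phosphate, was 31.5-fold higher. PDE4D, a cyclic AMP phosphodiesterase, was 32.2-fold higher, and RAB27B, a GTPase of granule release, 28.6-fold. MEIS2, a homeobox factor, was 20.4-fold higher, but 1 member held 18.5% of its UMIs. The other leading genes, EMILIN2, VWA5A, CCDC85A, GAS7, NAV2, SAMSN1 and CCBE1, were between 18.7-fold and 48.0-fold higher. Among features with no symbol, ENSCHIG00000007521 was 87.9-fold higher with UMIs in 38 members and ENSCHIG00000026640 23.1-fold higher in 24.

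**Figure D3:**
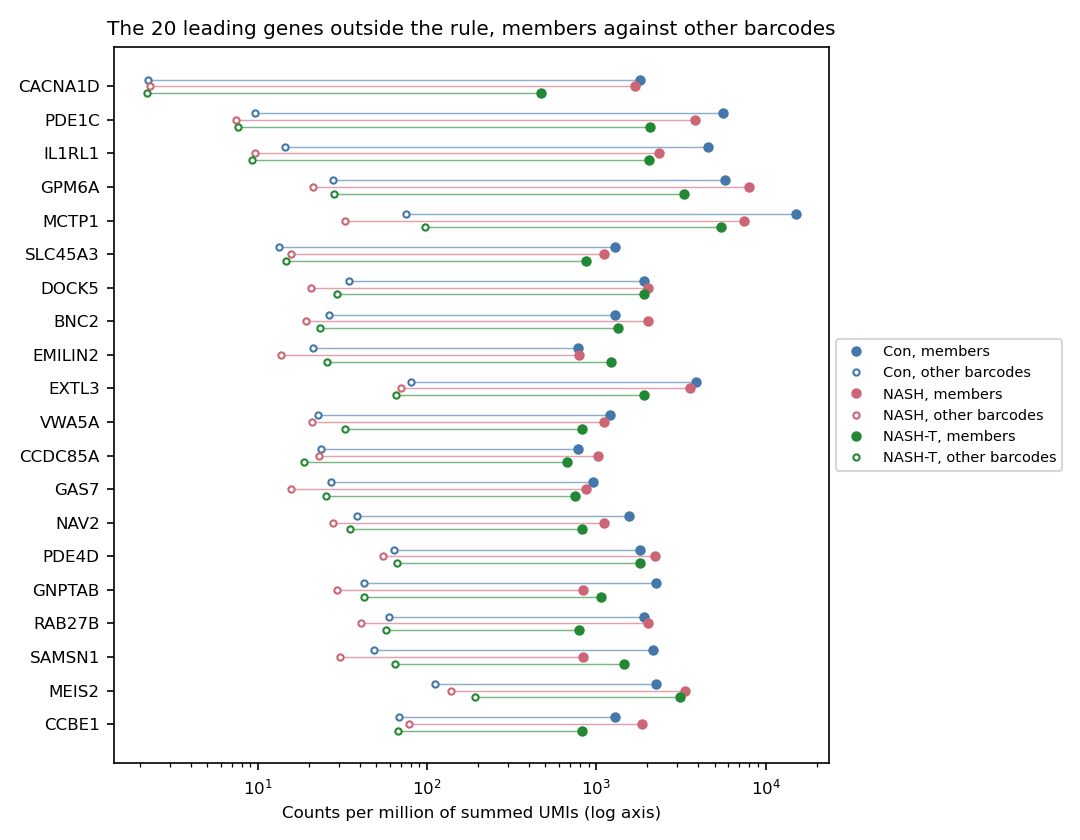
CPM of summed UMIs (x axis, log scale) of the 20 leading genes outside the rule (y axis) in members (filled points) and in all other barcodes (open points) of Con, NASH and NASH-T. The genes were chosen for a ratio of at least 2 in every library, so the filled points lie to the right. Over all members, mixed ones included, NASH-T is lowest of the 3 for CACNA1D, PDE1C, IL1RL1, GPM6A and MCTP1. Without the mixed members NASH is lowest for IL1RL1 (2660.7 CPM against 3428.9 in NASH-T) and MCTP1 (8215.5 against 8980.3).

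Receptors were led by IL1RL1, with 4574 CPM in Con, 2331 in NASH and 2040 in NASH-T. Of the 13 measured genes of the growth factor and cytokine receptor list, 7 were higher in members and 2 were lower, against the background of 6.07% higher and 5.2% lower. IL18R1, the interleukin 18 receptor, had 13 UMIs in 11 members and was 27.5-fold higher. CSF2RB, the shared beta chain of the interleukin 3, interleukin 5 and GM-CSF receptors, had 3 UMIs. IL1RAP, the partner chain of IL1RL1 in interleukin 33 signalling, had 8 UMIs in 6 members and was lower than in the other barcodes, at 128 CPM against 461.

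Granule and amine genes gave a mixed picture. SRGN, the proteoglycan core of granules, was 12.3-fold higher with 62 UMIs in 26 members, at 949 CPM in Con, 1067 in NASH and 941 in NASH-T. The intervals of the 3 libraries overlap. SRGN was the only 1 of 8 measured genes of the granule protease and proteoglycan list that was higher, against 6.07% of all genes. The vesicular amine transporter SLC18A2, which loads histamine into granules, had 4 UMIs in Con, 0 in NASH and 2 in NASH-T. In the secretion list 5 of 14 measured genes were higher, among them RAB27B with UMIs in 37 members and STX3, a membrane fusion protein, with 7 UMIs in 7 members. RAB27B stood at 1899 CPM in Con, 2015 in NASH and 784.6 in NASH-T.

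Enzymes of lipid mediators were present in few UMIs but in many members. In the prostaglandin and leukotriene list 7 of 14 measured genes were higher and 0 lower, against 6.07% higher and 5.2% lower over all genes. ALOX5, the 5-lipoxygenase that starts leukotriene synthesis, had 8, 10 and 8 UMIs in Con, NASH and NASH-T and was 31.0-fold higher with UMIs in 18 members. Its activating protein ALOX5AP had 2, 5 and 4 UMIs and was 691-fold higher (302 to 1487). LTC4S, the leukotriene C4 synthase, had 4, 4 and 5 UMIs, and HPGDS, the haematopoietic prostaglandin D synthase, 2, 7 and 5. PTGS1, cyclooxygenase 1, was 5.72-fold higher and HPGD, which breaks down prostaglandins, 18.1-fold. At these counts no order of the libraries can be read for any of these enzymes.

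The IgE receptor's signalling chain was measured in 15 genes, of which 9 were higher in members and 0 lower. The shares over all genes were 6.07% higher and 5.2% lower. PRKCB, a protein kinase C, had UMIs in 49 of 52 members, at 3624 CPM in Con, 3714 in NASH and 2629 in NASH-T, and was 6.65-fold higher than in other barcodes. BTK, a kinase downstream of the receptor, was 6.45-fold higher with UMIs in 18 members. PLCG1 was 6.32-fold higher, PLCG2 3.68-fold, the adaptor LCP2 2.97-fold and the kinases FYN and SYK each 2.56-fold. The inhibitory phosphatase INPP5D was 3.22-fold higher. LYN, the first kinase to act on the receptor, had 5 UMIs and was not called. These genes are shared with other leukocytes, so these ratios to all other barcodes are not particular to mast-like ones.

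Among lineage transcription factors, 5 of 16 measured genes were higher and 0 lower. MITF, the factor needed for mast cell development, had UMIs in 43 members and was 3.57-fold higher, with 931 CPM in the other barcodes. ZEB2 was 3.95-fold higher with UMIs in 45 members, IKZF1 3.26-fold and FLI1 3.26-fold. RUNX1 had 17 UMIs and was not called. Of 13 measured cytokine genes, LIF and IL18 were higher and 1 was lower, against 6.07% higher and 5.2% lower over all genes. LIF, a cytokine of the interleukin 6 family, had 6 UMIs in Con, 6 in NASH and 1 in NASH-T, spread over 12 members, and was 719-fold higher (338 to 1459). Of the immediate early list 3 of 10 were higher: FOSB and NR4A1, with 4 and 5 UMIs, and DUSP1. However, 76.9% of the DUSP1 UMIs came from 1 member, and without the mixed members DUSP1 was at 0.794 of the other barcodes. None of 14 interferon-stimulated and none of 16 cholesterol genes was higher, and 1 and 3 were lower. The median ratio to the other barcodes was 3.74 for the lipid mediator list, 2.97 for IgE signalling, 2.75 for receptors and 1.93 for transcription factors. For the granule list (0.876) and secretion (0.577) it lay below 1. Over all genes measured the median was 0, since so many had no UMI in the members, so it cannot serve as a base. Lists of other cell types also lay above 0, at 1.04 for macrophages and 1.45 for vascular endothelium.

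Other marked barcodes of the same libraries showed where these genes occur. KIT, which chose the members and is given as a description, after thinning every barcode to 500 UMIs was found in 92.9% of members of Con, 100% of NASH and 92.9% of NASH-T, and in 0.0376%, 0.121% and 0.105% of hepatocyte-marked barcodes. Without thinning KIT was in 100% of members of each library and in 0.413%, 0.898% and 0.281% of hepatocyte-marked barcodes, whose median depth was 4866.5, 4399 and 4753 UMIs. IL1RL1, thinned in the same way, was found in 85.7%, 75.0% and 64.3% of members and in 4.07%, 3.48% and 2.14% of T cell-marked barcodes, and in 0%, 0.0485% and 0.0351% of hepatocyte-marked ones. Without thinning IL1RL1 was in 92.9%, 91.7% and 78.6% of members and in 10.1%, 7.99% and 4.41% of T cell-marked barcodes, whose median depth was 1279, 1162.5 and 1313 UMIs. IL1RL1 had 0 UMIs in vascular and sinusoidal endothelial-marked barcodes of the 3 libraries. MCTP1 reached 889, 327 and 850 CPM in vascular endothelial-marked barcodes of Con, NASH and NASH-T, and PDE1C reached 319, 290 and 237 CPM and GPM6A 353, 350 and 421 CPM in cholangiocyte-marked ones. GPM6A also reached 1116, 835 and 524 CPM in dendritic-marked barcodes, of which there were only 5, 6 and 7. All 26 KIT UMIs of the NASH B cell-marked barcodes came from 1 barcode, as did all 20 of GPM6A.

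**Figure D4:**
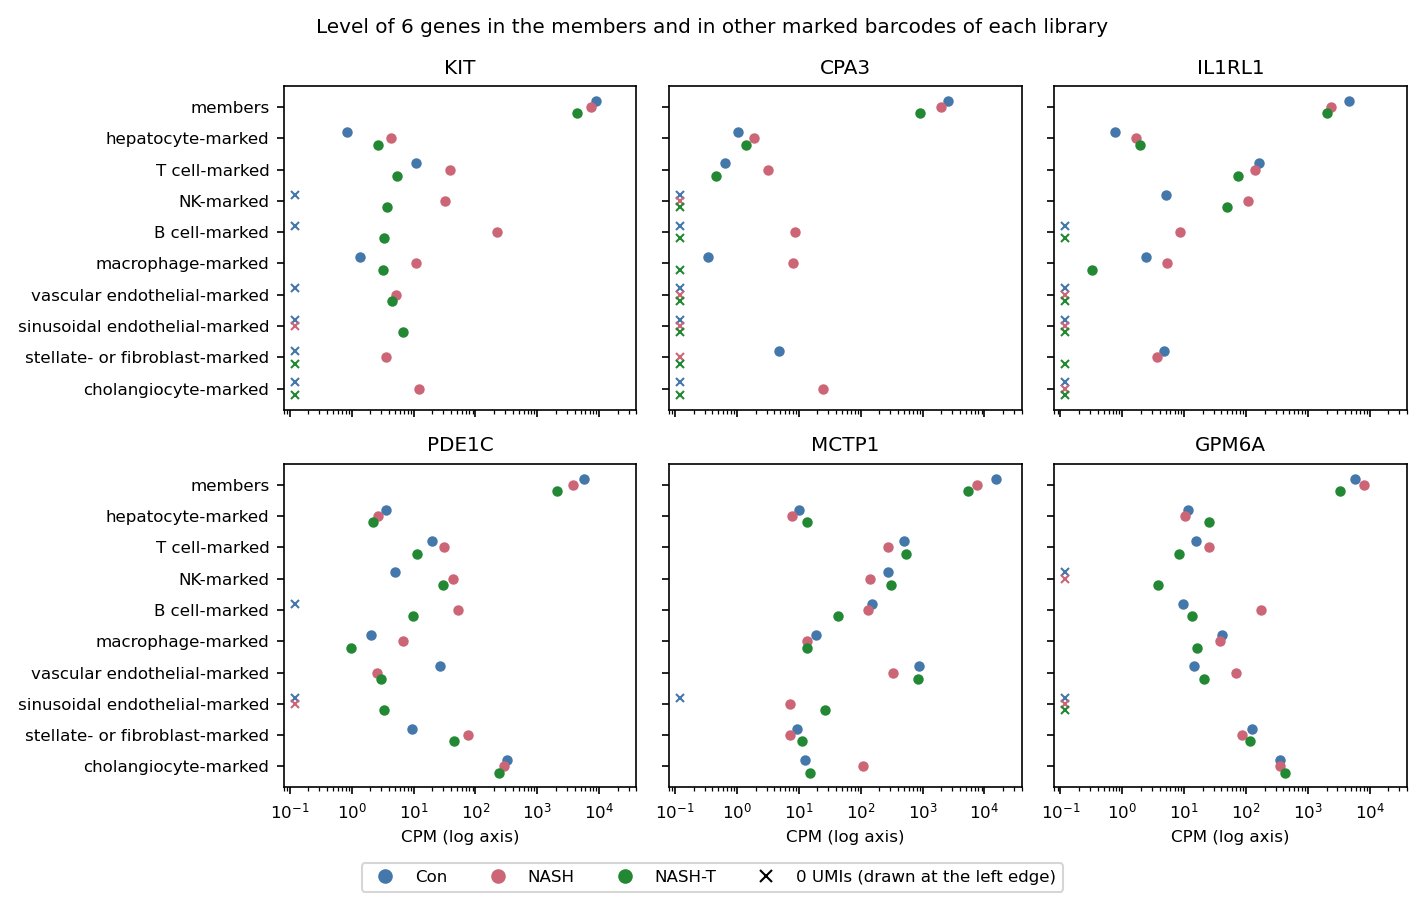
Level in CPM (x axis, log scale) of KIT, CPA3, IL1RL1, PDE1C, MCTP1 and GPM6A in members and in 9 of the 10 populations of other marked barcodes (y axis, dendritic-marked barcodes not drawn) of Con, NASH and NASH-T, with a cross for 0 UMIs. KIT and CPA3 chose the members. Of the other populations drawn, IL1RL1 is highest in T cell-marked, MCTP1 in vascular endothelial-marked, and PDE1C and GPM6A in cholangiocyte-marked barcodes.

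The ligands of the receptors were read in the surrounding barcodes. KITLG was highest in stellate- or fibroblast-marked barcodes, at 327 CPM in Con (254 to 414), 388 in NASH (319 to 469) and 217 in NASH-T (171 to 271). In hepatocyte-marked barcodes KITLG was 8.13 CPM in Con (6.78 to 9.67), 40.0 in NASH (37.5 to 42.7) and 12.9 in NASH-T (11.3 to 14.8). NASH was the highest of the 3 libraries in both populations. Its interval lay apart from both others in hepatocyte-marked barcodes but overlapped that of Con in stellate- or fibroblast-marked ones. In cholangiocyte-marked barcodes KITLG was highest in Con, at 127.5 CPM against 72.45 in NASH and 76.49 in NASH-T. In vascular endothelial-marked ones it was highest in NASH-T, at 88.74 CPM against 64.37 in Con and 82.44 in NASH. The intervals of the 3 libraries overlap in these last populations. IL33, the ligand of IL1RL1, was highest in sinusoidal endothelial-marked barcodes, at 1547 CPM in Con (1278 to 1857), 1960 in NASH (1736 to 2205) and 1967 in NASH-T (1811 to 2133). In hepatocyte-marked barcodes IL33 was 23.2 CPM in Con, 102 in NASH and 57.0 in NASH-T. Among members, KITLG had 0 UMIs and the 14 UMIs of IL33 all lay in 1 mixed member. With 1 pool per group, no relation between these levels and the share of members can be tested.

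Between the libraries, few genes had enough UMIs. Each ratio is that of CPM in the first library named over the second. For NASH over Con, 345 genes had at least 20 UMIs over both, and 19 (5.51%) were called higher and 28 (8.12%) lower, where a call needs a 1.5-fold ratio and an interval on 1 side of 1. For NASH-T over Con, 25 (7.04%) of 355 were called higher and 38 (10.7%) lower. For NASH-T over NASH, 45 (8.11%) of 555 were called higher and 37 (6.67%) lower. Single members weighed heavily: in 10 of the 19 and 11 of the 28, 22 of the 25 and 17 of the 38, and 38 of the 45 and 13 of the 37 genes, 1 member of the higher library held over 25% of its UMIs of the gene. Without the mixed members the NASH-T over Con calls were 12 and 13 and the NASH-T over NASH calls 27 and 14. The comparisons of NASH and of NASH-T with Con share the Con members. The gene lists had 0 to 7 measured genes each, and only IL1RL1, MITF, RAB27B and INPP5D among them were called in any comparison.

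Con members had the highest MCTP1 and IL1RL1. MCTP1 stood at 15188 CPM in Con (13027 to 17605), 7468 in NASH and 5453 in NASH-T. Single members held 1 to 30 of its UMIs in Con (median 9), 0 to 30 in NASH (7) and 2 to 19 in NASH-T (10.5). For NASH over Con its ratio was 0.492 (0.398 to 0.607), and 0.541 (0.436 to 0.670) without the mixed member. For NASH-T over Con it was 0.359 (0.285 to 0.451), and 0.591 (0.462 to 0.755) without the mixed members. Between NASH-T and NASH, MCTP1 was 0.730 (0.582 to 0.914) over all members and 1.09 (0.853 to 1.40) without the mixed ones. IL1RL1 had 53 UMIs in Con (0 to 8 in a member), 59 in NASH (0 to 7) and 52 in NASH-T (0 to 10). IL1RL1 for NASH over Con was 0.510 (0.346 to 0.753), and 0.582 (0.393 to 0.862) without the mixed member. For NASH-T over Con it was 0.446 (0.298 to 0.667), but 0.750 (0.488 to 1.14) without the mixed members. For NASH-T over NASH it was 0.875 (0.591 to 1.29), and 1.29 (0.844 to 1.95) without them. The NASH over Con intervals of both genes lay below 1 with and without the mixed member, and that of IL1RL1 for NASH-T over Con did not without the mixed members. Among members thinned to 1000 UMIs, IL1RL1 for NASH over Con was 0.559 (0.273 to 1.14).

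CACNA1D and PDE1C were lowest in NASH-T. CACNA1D had 21 UMIs in Con, 43 in NASH and 12 in NASH-T, or 1812, 1699 and 471 CPM, in 10 of 14, 16 of 24 and 8 of 14 members. Its NASH-T over Con ratio was 0.260 (0.117 to 0.553), and 0.270 (0.0893 to 0.692) without the mixed members. Its NASH-T over NASH ratio was 0.277 (0.133 to 0.535), and 0.284 (0.0978 to 0.678) without them. PDE1C stood at 5609, 3833 and 2079 CPM in Con, NASH and NASH-T, with 1 to 11, 0 to 18 and 0 to 12 UMIs in a member. For NASH-T over Con it was 0.371 (0.253 to 0.541), and 0.466 (0.295 to 0.722) without the mixed members. For NASH-T over NASH it was 0.543 (0.381 to 0.766), and 0.577 (0.374 to 0.868) without them. In these 4 comparisons the interval stayed below 1 in both sets of members. Among members thinned to 1000 UMIs the CACNA1D interval for NASH-T over Con reached 1.41.

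GPM6A was highest in NASH, at 7982 CPM against 5782 in Con and 3295 in NASH-T, with 1 to 32, 0 to 15 and 1 to 23 UMIs in a member. Its NASH-T over NASH ratio was 0.413 (0.316 to 0.535), and 0.607 (0.452 to 0.808) without the mixed members. Its NASH-T over Con ratio was 0.570 (0.408 to 0.798), and 0.932 (0.653 to 1.33) without them. RAB27B for NASH-T over NASH was 0.389 (0.220 to 0.665), and 0.571 (0.303 to 1.02) without the mixed members. MITF for NASH over Con was 0.654 (0.448 to 0.962), and 0.740 (0.504 to 1.09) without the mixed member. INPP5D for NASH-T over NASH was 1.84 (1.06 to 3.30), and 2.56 (1.20 to 5.63) without them. The rule gene KIT, printed for comparison only, was 0.589 (0.462 to 0.749) for NASH-T over NASH over all members and 0.855 (0.655 to 1.11) without the mixed ones.

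**Figure D5:**
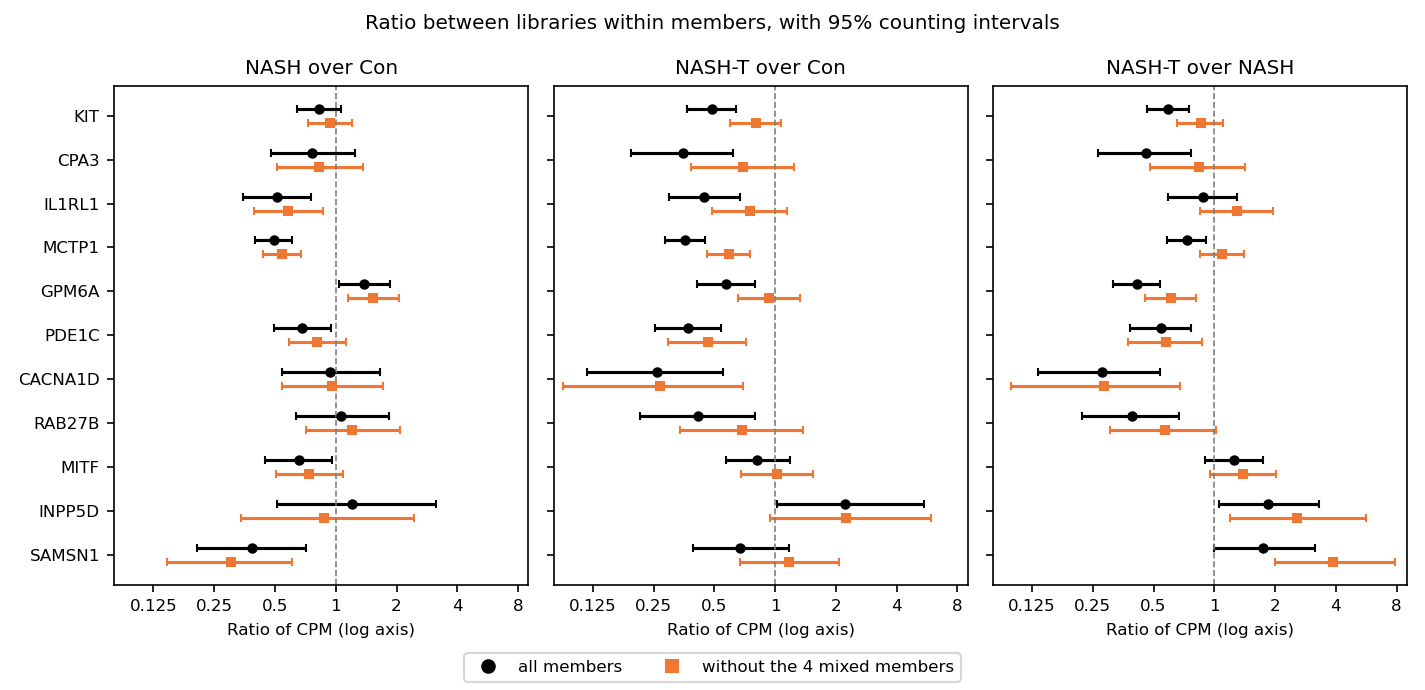
Ratio of CPM between libraries within members (x axis, log scale, with 95% counting intervals) for 11 genes (y axis) over all members (circles) and without the 4 mixed members (squares). For NASH-T over Con and for NASH-T over NASH the squares of KIT, CPA3, IL1RL1, MCTP1 and GPM6A lie nearer to or beyond 1 than the circles, while those of CACNA1D hardly move.

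The remaining genes were those with the largest called ratios that no single member dominated. For NASH over Con, FAM189A1 had 20 UMIs in 9 members of NASH and 0 in Con, which is at least 3.05-fold higher against a floor of 3 counts in Con, with a lower counting limit of 2.26. ST8SIA4, a sialyltransferase that makes polysialic acid, was 5.95-fold higher (1.49 to 51.7), with 26 UMIs against 2. JAK2, the kinase of many cytokine receptors, was 5.04-fold higher (1.24 to 44.2), with 22 UMIs in 12 members against 2 in 2. KPNA4, a nuclear import receptor, was 3.97-fold higher (1.22 to 20.5) and PTPRG, a receptor tyrosine phosphatase, 3.51-fold (1.06 to 18.3), each against 3 UMIs in Con. These intervals reach down to between 1.06 and 1.49, so the sizes are loose.

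Genes lower in NASH than in Con included TRPS1, a GATA-type repressor, with 20 UMIs against 25 and a ratio of 0.366 (0.193 to 0.687). SAMSN1, an adaptor of immune cells, had 21 UMIs against 25 and a ratio of 0.385 (0.205 to 0.716). SAMSN1 had 37 UMIs in NASH-T, so it was not uniformly low on the HRDS diet: its NASH-T over NASH ratio was 1.75 (0.998 to 3.15), and 3.87 (2.00 to 7.88) without the mixed members. LCORL was at 0.247 (0.0833 to 0.665), ZDHHC2, a palmitoyltransferase, at 0.382 (0.148 to 0.964) and ASH1L, a histone methyltransferase, at 0.483 (0.240 to 0.976). The ASH1L interval reached 1.10 without the mixed member.

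For NASH-T over Con, PHACTR2 was 4.55-fold higher (1.10 to 40.1), with 20 UMIs against 2. Without the mixed members its interval reached down to 0.881. RERE, a transcriptional corepressor, was at 0.341 (0.184 to 0.622) and ATXN1, another transcriptional regulator, at 0.372 (0.188 to 0.727). The RERE interval stayed below 1 without the mixed members (0.167 to 0.770) and that of ATXN1 did not (0.233 to 1.09).

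For NASH-T over NASH the higher genes kept intervals above 1 without the mixed members. IKZF2, the transcription factor Helios, had 35 UMIs in 12 of 14 members against 13 in 8 of 24 and was 2.67-fold higher (1.38 to 5.51). Without the mixed members it was 3.50-fold higher (1.56 to 8.37). NCKAP1, a subunit of the actin-regulating WAVE complex, was 3.57-fold higher (1.28 to 12.3) and the splicing factor LUC7L3 3.31-fold (1.28 to 10.1). CD47, which inhibits uptake by phagocytes, was 2.98-fold higher (1.22 to 8.29) and BIRC3, an inhibitor of apoptosis, 2.81-fold (1.06 to 8.71).

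Besides CACNA1D, given above, further genes were lower for NASH-T over NASH. FAM189A1 was at 0.298 (0.0979 to 0.769) and PITPNC1, a phospholipid transfer protein, at 0.355 (0.154 to 0.752). Without the mixed members their upper bounds were above 1, at 1.04 and 1.05. APOA2, an apolipoprotein made by hepatocytes, stood at 790.3 CPM in NASH members and 275 in NASH-T members. Its ratio was 0.348 (0.124 to 0.856), and 0.437 (0.128 to 1.20) without the mixed members. In T cell-marked barcodes APOA2 was 615 and 512 CPM in NASH and NASH-T. The part of free RNA in the APOA2 difference was not tested.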

How the data were processed

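The 3 droplet libraries, each from the pooled livers of 5 goats, were read from the deposited UMI counts per gene and barcode. Per the submitters' processing notes the authors used Cell Ranger 7.0.0. Genome build and annotation: not given in the sources used here. Of 27271 features 9958 have an identifier only.

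Members were found by the rule, and UMIs were summed over members of each library and divided by their total (CPM). Shares have exact Clopper-Pearson, CPM exact Poisson and ratios exact conditional binomial 95% intervals, which cover counting error only. Genes with at least 20 UMIs over both groups were compared between libraries, and called at a ratio of at least 1.5, or 2 against other barcodes, with an interval excluding 1. A count of 0 was bounded with 3 counts. The intervals were tested on simulated data. Scrublet (scanpy 1.11.5, expected rate 0.06) marked 3.89% of Con, 3.92% of NASH and 4.65% of NASH-T barcodes, and none were removed from the members. Pairs of libraries shared 20 to 23 barcode sequences.

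Leading genes were the 20 with the largest ratio to other barcodes among genes with a symbol, at least 50 UMIs, a UMI in at least 10% of members and a ratio of at least 2 in every library, rule genes left out. Between libraries, the 5 called genes with the largest ratio in each direction were named where the ratio was at least 2, at least 5% of members of the higher library had a UMI, no member held over 25% of the UMIs and the CPM was above that in hepatocyte-marked barcodes. One gene this rule names is not reported here. The 10 comparison populations of non-member barcodes had at least 3 UMIs (hepatocyte-marked 4) over at least 2 of their own markers, and fitted no other population. Gene symbols were taken from the files, and no sequence is printed. The members, markers and gene lists were chosen with earlier results of these data known. Alternatives changed the rule's thresholds, depth, doublets and mixed members. The alternatives without mixed members, with the 5-gene condition alone, thinned to 500 UMIs and with members weighted equally were chosen after seeing the data.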

Additional observations from a re-analysis of the deposited data

How the results depend on the processing

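Shares kept their direction under the 18 alternatives, except that NASH-T over NASH was 1.17 and NASH-T over Con 1.63 both among barcodes of at least 1000 UMIs and thinned to 1000 UMIs. Genes called for NASH over Con (19 higher, 28 lower) became 12 higher with VWF, CDH5 and PECAM1 at 0, 4 and 15 thinned to 1000 UMIs, 46 and 48 at 10 UMIs, 3 and 14 at 50 UMIs, and 17 lower at a ratio of 2. Genes called for NASH-T over Con (25 and 38) became 15 and 20 with CPA3, MS4A2 or HDC detected, 12 and 16 with the vascular genes at 0, 12 and 13 without mixed members, 5 and 14 thinned, 62 and 62 at 10 UMIs, and 4 and 22 at 50 UMIs. Genes called for NASH-T over NASH (45 and 37) became 25 and 15 with the vascular genes at 0, 27 and 14 without mixed members, 7 and 4 thinned, 92 and 79 at 10 UMIs, and 9 and 18 at 50 UMIs. Higher minima test fewer genes, and thinning keeps fewer members. Where mixed members changed a count, the cause was not tested.

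Of 454 values of single genes under 8 alternatives, 412 stayed within the interval over all members, 36 left it and 6 reversed a direction whose interval lay on 1 side of 1. MCTP1 for NASH-T over NASH reversed to 1.02 with the vascular genes at 0, 1.09 without mixed members and 1.14 thinned. KIT for NASH-T over NASH was 1.14, APOA2 1.60, and INPP5D for NASH-T over Con 0.929, each thinned to 1000 UMIs. No paired analysis was possible because each group is 1 pooled library. Depth limits most results: 52 members gave 62386 UMIs, and a single UMI is 86.3 CPM in Con, so genes below the floor of 3 counts (259 CPM in Con, 118 in NASH and 118 in NASH-T) could not be followed.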
